A study of Mus musculus with 1528 samples.

Results

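The NF-kB and I-kB family was described through 10 genes of the 55421 genes in the count table, and all 10 were found by matching their symbols to Ensembl identifiers. They are the 5 subunit genes *Nfkb1*, *Nfkb2*, *Rela*, *Relb* and *Rel*, the cytoplasmic inhibitor genes *Nfkbia*, *Nfkbib* and *Nfkbie*, and *Bcl3* and *Nfkbiz*, which encode nuclear members of the inhibitor family. The genes were named by family, but with earlier results of these data known. All 10 passed the filter on low values, so no member was left out of any comparison.

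The data were full-length single-cell RNA-seq profiles (Smart-seq2) of bone marrow-derived macrophages (BMDMs) from 2 wild-type C57BL/6 mice (C57BL/6J in the methods of the study), grown from bone marrow with the growth factor M-CSF. The control cells received IL4 together with IL13, and the test cells received TNF in addition, at 10 ng/ml of every cytokine and for 24 h, so that IL4 and IL13, the cytokines that drive alternative (M2) activation, were present in both groups and no unstimulated cells were part of the comparison. Live cells were sorted singly into 4 plates of 384 wells, 2 plates per mouse, and each plate held both treatments of 1 mouse in separate rows, so treatment and plate row cannot be told apart. Of 1524 wells with a labelled treatment and mouse, 1386 passed the cell filter: 357 control and 347 TNF-treated cells of mouse 1, and 333 and 349 of mouse 2. The 4 sums of cells held between 162260282 and 179757666 fragments, and single cells between 200235 and 6122892. The macrophage markers were present, with *Csf1r* at 849 to 1322 CPM (counts scaled to a common library size, TMM-adjusted for the members), while 6 of 6 lymphocyte, 4 of 4 mast cell and basophil and 4 of 4 fibroblast markers were under 1 CPM in every sum, as were 6 of 7 neutrophil markers.

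NF-kB factors are dimers of subunits that share a DNA-binding Rel homology domain. The I-kB proteins hold these dimers in the cytoplasm, and the I-kB kinase complex, switched on by the TNF receptor, marks them for degradation so that the dimers enter the nucleus. *Rela*, *Relb* and *Rel* encode the subunits with an activation domain, *Nfkb1* and *Nfkb2* encode precursors that are processed to DNA-binding subunits, and several genes of the family are themselves known NF-kB targets in macrophages, which makes the pathway feed back on its own parts.

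With TNF, the transcripts of 9 of the 10 members were higher in both mice than in either mouse with IL4+IL13 alone, and *Rel* was the exception. The largest differences were those of *Nfkbie*, at 9.0-fold, *Relb*, at 4.67-fold, *Nfkbia*, at 3.92-fold, and *Nfkb2*, at 2.95-fold, and these 4 passed the test once the mouse was included as a block. The count of 9 is to be read against the 18.6% of all 17034 genes tested whose CPM in both mice with TNF lay above both mice without. The median log2 fold change was 0.89 over the members and 0.00 over all genes tested. In edgeR's quasi-likelihood test with treatment as the only term, no member passed a Benjamini-Hochberg adjusted p of 0.05 (0.00587% of all genes did, a single gene, *Clec4e*), although 6 members had an unadjusted p under 0.05, against 8.10% of all genes. With the mouse as a replicate block, which the labels justify because both treatments came from the same animals, 4 members were called, all higher (3.82% of all genes in either direction, 1.94% higher). DESeq2 without the block called 5, the same 4 and *Bcl3*, all higher (3.89% in either direction, 1.98% higher). As there were 2 mice per treatment, an exact permutation test of a single gene could not go below a two-sided p of 0.333, or of 0.5 when treatments are permuted within the mice, and in sums of cells a change in the number of expressing cells and a change in the RNA per cell cannot be told apart.

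The promoter windows of the members were searched for the DNA letters that NF-kB dimers are known to read, and those of 3 called members and of *Rel*, which was not called, are shown to allow a comparison. RefSeq windows of GRCm38.p6 (the build named mm10 in the processing notes), from 250 bases before to 50 bases after a start site, were found for 7 of the 10 members (9 windows, 3 of them of *Nfkb2*) and none was found for *Nfkb1*, *Relb* or *Nfkbiz*. The sequences below are the 250 bases before the start site on the strand of the gene, 5′ to 3′, with matches to the kappaB consensus on either strand in capitals. They lie at chr12:55492648-55492897 (minus strand, *Nfkbia*), chr17:45555450-45555699 (plus strand, *Nfkbie*), chr19:46305445-46305694 (plus strand, the second of the 3 *Nfkb2* windows) and chr11:23770970-23771219 (minus strand, *Rel*).
Nfkbia: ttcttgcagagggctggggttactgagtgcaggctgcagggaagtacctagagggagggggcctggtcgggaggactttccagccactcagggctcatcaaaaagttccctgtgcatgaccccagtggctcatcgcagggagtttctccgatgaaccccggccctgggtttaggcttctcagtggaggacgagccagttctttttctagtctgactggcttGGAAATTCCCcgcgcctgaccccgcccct
Nfkbie: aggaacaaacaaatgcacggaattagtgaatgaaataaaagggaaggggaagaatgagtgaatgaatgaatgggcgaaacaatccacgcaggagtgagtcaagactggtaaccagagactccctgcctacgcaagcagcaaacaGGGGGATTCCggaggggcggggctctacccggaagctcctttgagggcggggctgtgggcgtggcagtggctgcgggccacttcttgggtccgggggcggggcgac
Nfkb2: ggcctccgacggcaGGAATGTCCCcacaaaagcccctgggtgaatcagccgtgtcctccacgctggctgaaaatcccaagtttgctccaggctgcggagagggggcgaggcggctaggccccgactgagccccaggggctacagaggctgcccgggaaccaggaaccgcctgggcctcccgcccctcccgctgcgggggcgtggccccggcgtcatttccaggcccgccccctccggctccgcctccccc
Rel: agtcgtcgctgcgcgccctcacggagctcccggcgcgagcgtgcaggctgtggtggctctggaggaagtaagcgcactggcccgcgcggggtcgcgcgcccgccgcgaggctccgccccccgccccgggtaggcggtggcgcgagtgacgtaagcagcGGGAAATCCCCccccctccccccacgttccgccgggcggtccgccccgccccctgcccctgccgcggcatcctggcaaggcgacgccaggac

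The kappaB consensus was present in the windows of 5 of the 7 members, *Nfkb2*, *Rel*, *Nfkbia*, *Nfkbie* and *Bcl3*. It was present in 8.46% of the 32851 promoter windows searched. Members were counted over any of their windows, while shares of all windows were taken per window. The consensus matches of *Bcl3* lay after the start site. The looser pattern of 3 G, any 5 bases and 2 C, which every consensus match also fits, was in the windows of 6 of the 7 members, all but *Nfkbib*, and in 50.8% of all windows. The classical kappaB site of the immunoglobulin kappa light chain enhancer was found in *Nfkb2* alone, in 2 overlapping windows that share the same copy, and in 0.155% of all windows. *Rel* held a consensus match like the called genes, and *Rela* and *Nfkbib* held none in these windows. The window of *Clec4e*, the gene with the strongest call, held no match to any of the 3 motifs. A match gives the letters only, and no binding was measured in these libraries.

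Among the subunits, *Relb* and *Nfkb2* changed most. *Relb* (ENSMUSG00000002983, chr7:19606217-19629438), which encodes the activating partner of the processed *Nfkb2* product, was at 7.65 CPM in mouse 1 and 11.7 CPM in mouse 2 without TNF and at 37.4 and 52.7 CPM with TNF. The groups did not overlap, and the log2 fold change was 2.22 ± 0.32 (SE, n = 2 mice per group) with an adjusted p of 0.206 in edgeR with treatment only and 2.23 ± 0.15 with an adjusted p of 0.00743 in edgeR with the mouse block. *Nfkb2* (ENSMUSG00000025225, chr19:46304320-46312385) was at 16.2 and 25.4 CPM without TNF and at 54.7 and 68.3 CPM with it. Mouse 2 was the higher animal in both treatments for both genes, and each mouse rose. The log2 fold change of *Nfkb2* was 1.56 ± 0.29 (SE, n = 2), with an edgeR adjusted p of 0.269 with treatment only and 0.0124 with the mouse block.

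*Nfkb1*, *Rela* and *Rel* moved less and were not called by any of the 3 fits. *Nfkb1* (ENSMUSG00000028163, chr3:135584655-135691547) was at 71.0 and 95.9 CPM without TNF and at 102.1 and 159 CPM with TNF. Its log2 fold change was 0.64 ± 0.29 (SE, n = 2), with an edgeR adjusted p of 0.676 with treatment only and 0.0558 with the mouse block, so the value with the block lay just outside the threshold. *Rela* (ENSMUSG00000024927, chr19:5637483-5648130), the main activating subunit of the canonical pathway, was at 54.8 and 57.3 CPM without TNF and at 70.0 and 68.8 CPM with TNF. The 2 pairs of values did not overlap, but the log2 fold change of 0.31 ± 0.17 (SE, n = 2) gave an edgeR adjusted p of 0.763 with treatment only and 0.212 with the mouse block. *Rel* (ENSMUSG00000020275, chr11:23736847-23770970), which encodes c-Rel, was at 55.1 and 94.5 CPM without TNF and at 59.6 and 83.6 CPM with TNF. The ranges of *Rel* overlapped, the difference between the mice was larger than that between the treatments, and the log2 fold change was -0.06 ± 0.33 (SE, n = 2; edgeR adjusted p = 0.989 with treatment only, 0.918 with the mouse block).

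All 3 cytoplasmic inhibitor genes were higher with TNF in both mice. *Nfkbia* (ENSMUSG00000021025, chr12:55489410-55492647) encodes I-kB alpha, the inhibitor best known for being resynthesised after NF-kB activation. It was at 119 and 121 CPM without TNF and at 533 and 408 CPM with it. The log2 fold change was 1.97 ± 0.20 (SE, n = 2), with an edgeR adjusted p of 0.135 with treatment only and 0.00771 with the mouse block. *Nfkbie* (ENSMUSG00000023947, chr17:45555703-45563169), encoding I-kB epsilon, was at 10.2 and 7.31 CPM without TNF and at 82.9 and 74.8 CPM with TNF, the largest relative difference in the family. Its log2 fold change was 3.17 ± 0.26 (SE, n = 2), with an edgeR adjusted p of 0.135 with treatment only and 0.00576 with the mouse block. *Nfkbib* (ENSMUSG00000030595, chr7:28758251-28767512), encoding I-kB beta, was at 42.5 and 41.8 CPM without TNF and at 69.6 and 60.6 CPM with TNF. It had a log2 fold change of 0.63 ± 0.18 (SE, n = 2) and was not called, with an edgeR adjusted p of 0.464 with treatment only and 0.0640 with the mouse block.

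The nuclear inhibitor genes were low in both treatments. *Bcl3* (ENSMUSG00000053175, chr7:19808462-19822770), whose product binds DNA-bound homodimers of the processed subunits, was at 7.42 and 9.12 CPM without TNF and at 14.2 and 21.9 CPM with TNF. The values did not overlap, and the log2 fold change of 1.13 ± 0.32 (SE, n = 2) had an edgeR adjusted p of 0.438 with treatment only and 0.0538 with the mouse block, and an adjusted p of 0.0373 in DESeq2. *Nfkbiz* (ENSMUSG00000035356, chr16:55811375-55838899), whose product is known as an inducible cofactor for secondary NF-kB targets, was at 9.20 and 10.7 CPM without TNF and at 13.8 and 15.8 CPM with TNF. Its log2 fold change was 0.57 ± 0.24 (SE, n = 2), with an edgeR adjusted p of 0.657 with treatment only and 0.169 with the mouse block.

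The strand was not used in counting. *Nfkb2* overlaps *Psd* and AC114539.1, *Nfkbib* overlaps *Ccer2* and *Sirt2*, and *Bcl3* overlaps Gm16174 and Gm16175 on the other strand, and *Nfkb1* overlaps Gm43430 on its own strand, so reads of these partners cannot be told apart where the exons overlap.

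Within plates, which hold both treatments of 1 mouse, 9 of the 10 members were higher with TNF on 4 of 4 plates, against 18.7% of all genes tested, and *Rel* was higher on 3 of 4. *Nfkbie* rose from 12.6 to 88.9 CPM on plate 2, from 7.81 to 77.8 on plate 3, from 7.07 to 74.9 on plate 4 and from 7.67 to 74.6 on plate 5. Plate 2 thus had the highest values of both treatments and the smallest ratio, 7.04, against 9.73 to 10.6 on the other plates. *Nfkbia* went from 124 to 570 and from 113 to 502 CPM on the plates of mouse 1 and from 112 to 361 and from 133 to 452 CPM on those of mouse 2, so that the treated plates of mouse 1 were both above those of mouse 2. *Relb* differed 3.98-fold to 6.14-fold and *Nfkb2* 2.12-fold to 4.15-fold over the plates. *Rel* went from 117 to 93.6 CPM on plate 4, the plate with the highest *Rel* in both treatments, and its ratio on the other plates was 1.04 to 1.09.

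**Figure D1:**
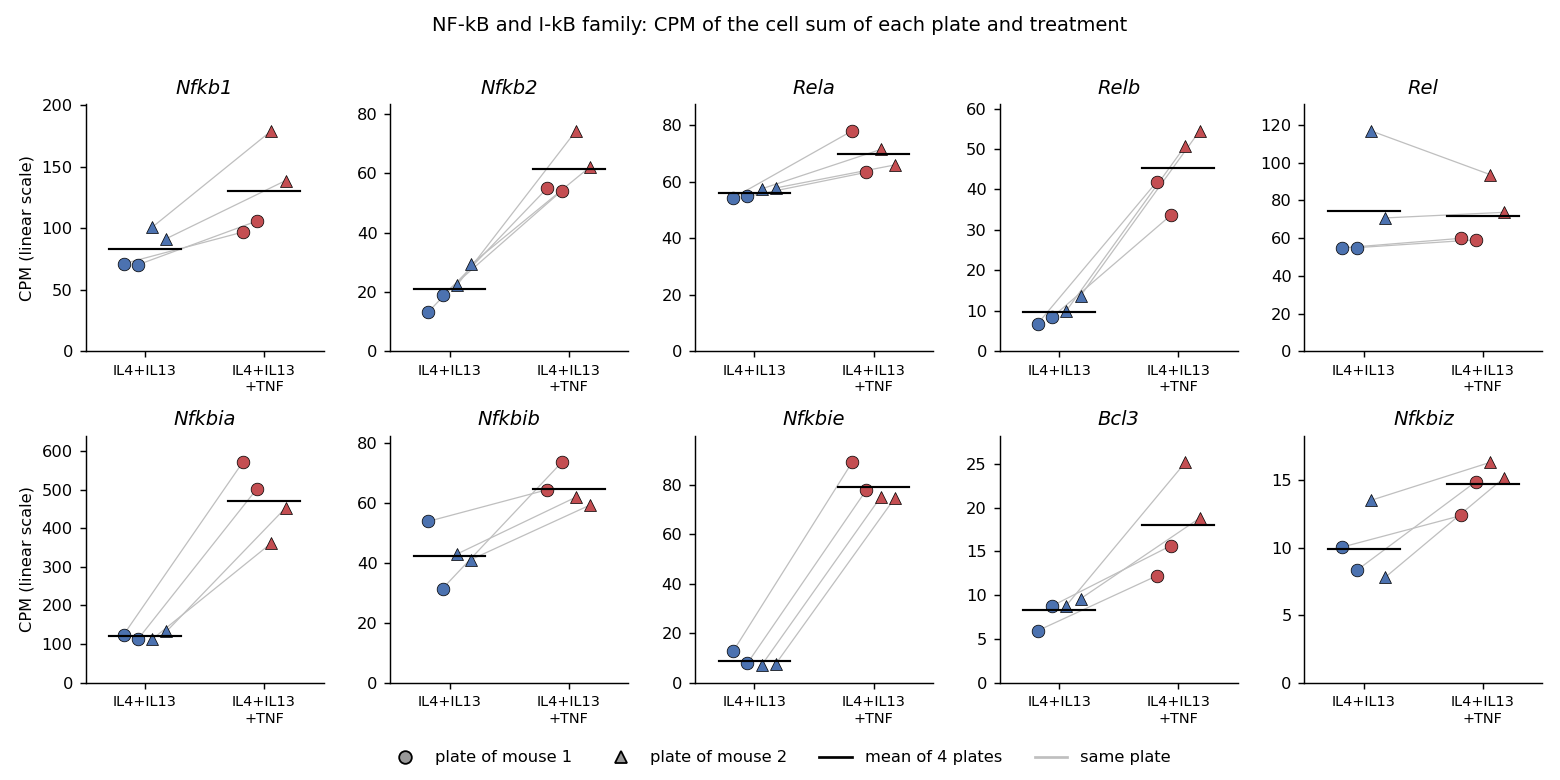
CPM (linear axes) of the 10 members in the sum of the cells of each plate and treatment, with circles for the plates of mouse 1, triangles for those of mouse 2, grey lines joining the treatments of a plate and black bars for the mean of 4 plates. The lines of 9 genes rise on 4 of 4 plates, and the *Rel* panel has 1 falling line, from 117 to 93.6 CPM on plate 4.

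The size of the TNF difference was compared between the mice by an interaction term fitted over the 8 sums of plate and treatment, whose p measures the spread between plates of an animal. No member differed between the mice at an edgeR adjusted p of 0.05 (0% of 17034 genes did, and 6.06% had an unadjusted p under 0.05). The member with the smallest p was *Nfkbia*, with an unadjusted p of 0.0538 and an adjusted p of 0.826, for which the difference in mouse 2 was lower by -0.45 ± 0.20 on the log2 scale (SE, n = 2 plates per mouse and treatment). For the other 9 members the unadjusted p was 0.279 or higher.

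**Figure D2:**
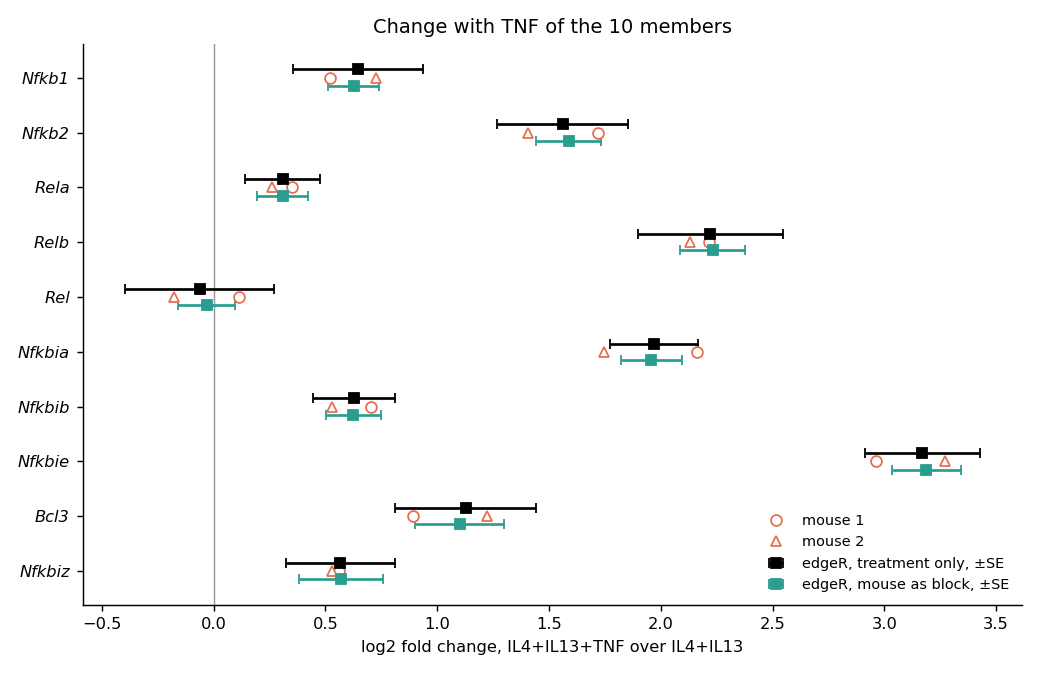
Log2 fold change of each member with TNF, as fitted by edgeR with treatment only (black squares) and with the mouse as a block (green squares), with bars of 1 SE, and as the log2 ratio within each mouse (open circles for mouse 1, open triangles for mouse 2). *Nfkbie* (3.17), *Relb* (2.22), *Nfkbia* (1.97) and *Nfkb2* (1.56) lie furthest to the right, *Rel* (-0.06) lies at 0, and the block shortens the bars while the positions stay close.

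Of the 7 dendritic cell markers, 1 (*Ccr7*) was higher with TNF in both mice than in either control mouse. Another 1 was lower, *Siglech* (0.724 and 2.07 CPM without and 0 and 0.0223 CPM with TNF), and 5 overlapped. The 7 dendritic cell markers summed to 8.62 and 13.2 CPM without TNF and to 29.9 and 205 CPM with TNF, mainly through *Ccr7*, which was at 0.112 and 0.450 CPM without and at 20.5 and 190 CPM with TNF, while *Flt3* stayed between 6.94 and 7.36 CPM. At least 5 *Ccr7* fragments were found in 0 of 357 and 1 of 333 cells without TNF and in 2 of 347 and 19 of 349 cells with TNF. Without these cells, which were left out after the data had been seen, the log2 fold changes were 3.18 for *Nfkbie*, 2.01 for *Relb*, 1.95 for *Nfkbia* and 1.52 for *Nfkb2*, and none of the members was called by edgeR with treatment only while 6 were with the mouse block, *Nfkb1* (adjusted p = 0.0402) and *Bcl3* (adjusted p = 0.0398) in addition to the other 4. The number of all genes called with the block went from 651 to 897 in the same step. The 8 macrophage markers summed to 15497 and 17399 CPM without and to 27261 and 26645 CPM with TNF. Of these, *Lyz2* alone (11701 and 13210.3 without, 23819.8 and 23008 CPM with TNF) was higher in both mice than in either control mouse, while 4 were lower, *Fcgr1* (70.01 and 69.2 to 19.2 and 20.1 CPM), *Mertk* (14.2 and 33.7 to 6.15 and 13.2 CPM), *Cd68* (1441 and 1469 to 1210.4 and 1176 CPM) and *Cd14* (336 and 264 to 259.96 and 228 CPM), and 3 overlapped. Of all genes tested, 18.6% were higher in both mice with TNF than in either control mouse. No share of all genes is given for lower values, so the counts of markers are a description only. The part of these markers in the values of the members was not tested.

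Levels of different genes were compared as CPM per kilobase of the summed exon length in the table. This length counts all annotated exons of a gene, 1610 bases for *Nfkbia* and 12061 bases for *Nfkb1*. It can exceed the length of the transcripts present, so the order of the genes depends on the annotation. Without TNF, *Nfkbia* was by far the highest at 74.6 ± 1.1 CPM per kilobase (SD, n = 2 mice), followed by *Nfkbib* at 19.4 ± 0.24 and *Rela* at 18.2 ± 0.59. *Rel* (10.0 ± 3.73) and *Nfkb1* (6.92 ± 1.46) came next and overlapped between the mice, as did each neighbouring pair of *Nfkb2* (4.54 ± 1.42), *Bcl3* (3.34 ± 0.49), *Nfkbie* (2.88 ± 0.67), *Relb* (2.49 ± 0.73) and *Nfkbiz* (1.99 ± 0.22). *Nfkbia*, *Nfkbib* and *Rela* thus headed the order in cells without TNF.

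With TNF, *Nfkbia* stood at 292 ± 55.1 CPM per kilobase (SD, n = 2), *Nfkbib* at 30.01 ± 2.93 and *Nfkbie* at 25.9 ± 1.87, so *Nfkbie* passed from eighth place to the third and *Rela* (22.6 ± 0.29) followed it. *Nfkb2* (13.4 ± 2.10), *Relb* (11.6 ± 2.79), *Nfkb1* (10.8 ± 3.32), *Rel* (9.59 ± 2.28) and *Bcl3* (7.29 ± 2.22) formed a group in which each neighbour in the order overlapped between the mice. *Nfkbiz* was the lowest at 2.94 ± 0.27.

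Summed per length, the 3 cytoplasmic inhibitor genes were at 96.7 and 97.03 CPM per kilobase without TNF and at 391 and 306 with TNF, and the 5 subunit genes were at 36.6 and 47.8 without and at 60.8 and 75.2 with TNF. The ratio of inhibitor to subunit transcripts was therefore 2.64 and 2.03 without and 6.43 and 4.07 with TNF. The 2 groups did not overlap, and *Nfkbia* made up 76.3% and 77.7% of the inhibitor transcripts without and 84.8% and 82.8% with TNF. Among the subunits, *Relb* made up 5.38% and 6.28% of the summed level without TNF and 15.8% and 18.05% with it, while *Rel* made up 20.1% and 26.5% without and 13.1% and 14.9% with TNF. These are shares of transcripts scaled by summed exon length, so their size and that of the ratio depend on the annotated lengths. The same lengths were used in both treatments. The amounts of protein were not analysed here.

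The difference in the sums was also seen as a difference in how many cells held fragments of a gene. Each cell was thinned to 339000 fragments, which left 1250 cells and left out 136 shallower ones (49 without and 87 with TNF). *Nfkbie* was found in 65 of 332 and 53 of 309 cells without TNF, or 19.6% (95% Clopper-Pearson interval 15.4 to 24.3) and 17.2% (13.1 to 21.8), and in 234 of 303 and 202 of 306 cells with TNF, or 77.2% (72.1 to 81.8) and 66.0% (60.4 to 71.3). *Relb* was found in 19.9% and 23.9% of cells without and in 60.4% and 66.0% with TNF, and *Nfkb2* in 38.6% and 36.6% without and in 77.9% and 79.7% with TNF. In all 3 genes the intervals of the treatments lay far apart. The intervals take the cells of an animal as the units, so they cover counting error within that animal and not the spread between mice. PCR copies were counted as fragments.

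For 7 of the 10 members the intervals of both mice with TNF lay above those of both mice without, against 1.52% of all genes tested, and 9 were found in more cells in both mice, against 45.1%. As the intervals leave out the spread between mice, their separation describes the cells sampled and is no test of the treatment. *Nfkbia* was already in 90.1% and 85.8% of cells without TNF and was in 99.3% and 98.04% with it, so its share of cells could rise little further. The median cell held 85.5 and 24.9 CPM of *Nfkbia* without TNF and 449 and 318 CPM with TNF. *Nfkb1* went from 82.8% and 80.9% to 91.7% and 96.7%, and *Nfkbib* from 70.2% and 62.5% to 85.5% and 82.0%. *Bcl3* went from 19.9% and 23.9% to 37.0% and 52.9%, the widest gap between the mice with TNF.

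The remaining 3 members, *Rela*, *Rel* and *Nfkbiz*, did not separate. *Rela* was found in 76.8% and 71.5% of cells without and 84.5% and 83.0% with TNF. *Rel* was found in 74.4% and 80.9% without and in 78.9% and 79.1% with TNF. *Nfkbiz* was found in 15.7% of cells of mouse 1 and 35.0% of mouse 2 without TNF and in 31.4% and 35.6% with TNF, so that the difference was confined to mouse 1. At 5 or more fragments the shares of *Nfkbiz* without TNF were 10.8% and 9.39%, close to each other, against 20.1% and 16.01% with TNF, so the mice differed without TNF in cells with 1 to 4 fragments. For *Clec4e* mouse 2 was also the higher animal without TNF at 1 fragment, with 42.5% and 60.2% of cells, but the lower one at 5, with 17.5% and 9.71%, and the source of such low counts was not tested.

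**Figure D3:**
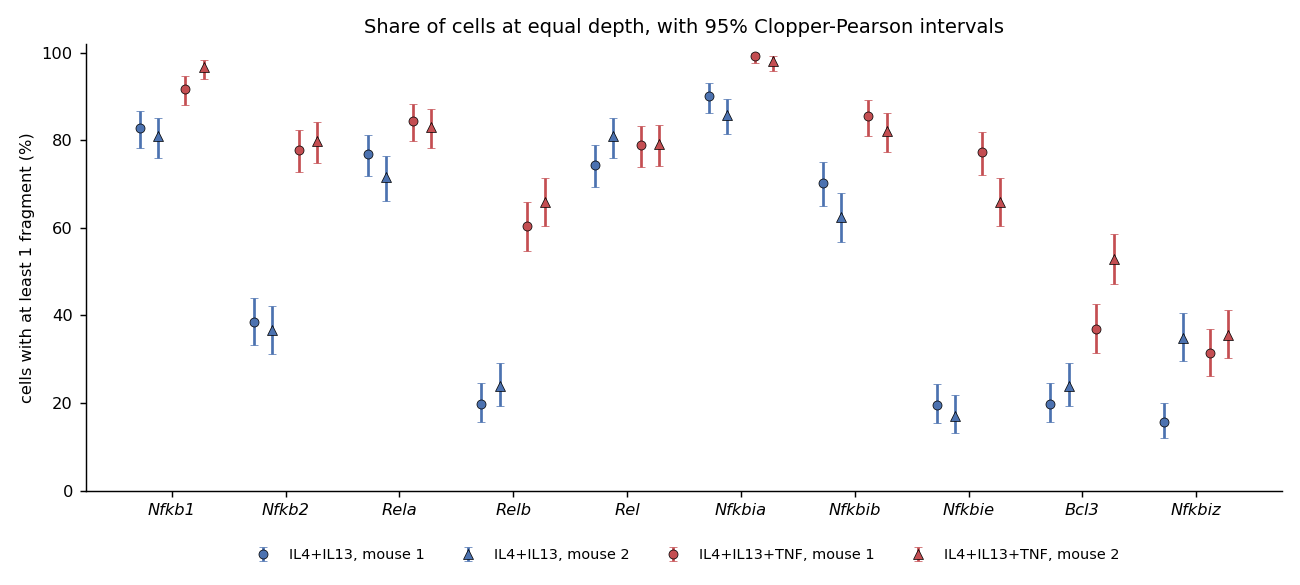
Percent of cells with at least 1 fragment of each member at equal depth, by treatment (blue, IL4+IL13; red, IL4+IL13+TNF) and mouse (circle, mouse 1; triangle, mouse 2), with 95% Clopper-Pearson intervals. *Nfkbie*, *Relb* and *Nfkb2* show the widest gaps, *Nfkbia* is near 100% of cells with TNF (99.3% and 98.04%), and *Rel* lies at the same height in both treatments.

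The genes also differed in how unevenly they were spread over cells, a measure that depends on how many cells hold the gene. It is therefore not separate from the shares of cells given above. Without TNF, the 5% of cells with the most *Nfkbie* held 74.9% and 90.3% of the summed per-cell CPM of the gene, and with TNF 22.8% and 29.8%. For *Relb* these cells held 65.5% and 73.0% without and 29.4% and 37.8% with TNF. *Nfkbia* was the most even gene with TNF, at 14.3% and 18.3%, and had been at 25.5% and 31.3% without. *Rel* was alike in both treatments, at 28.4% and 27.7% without and 24.1% and 31.6% with TNF.

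**Figure D4:**
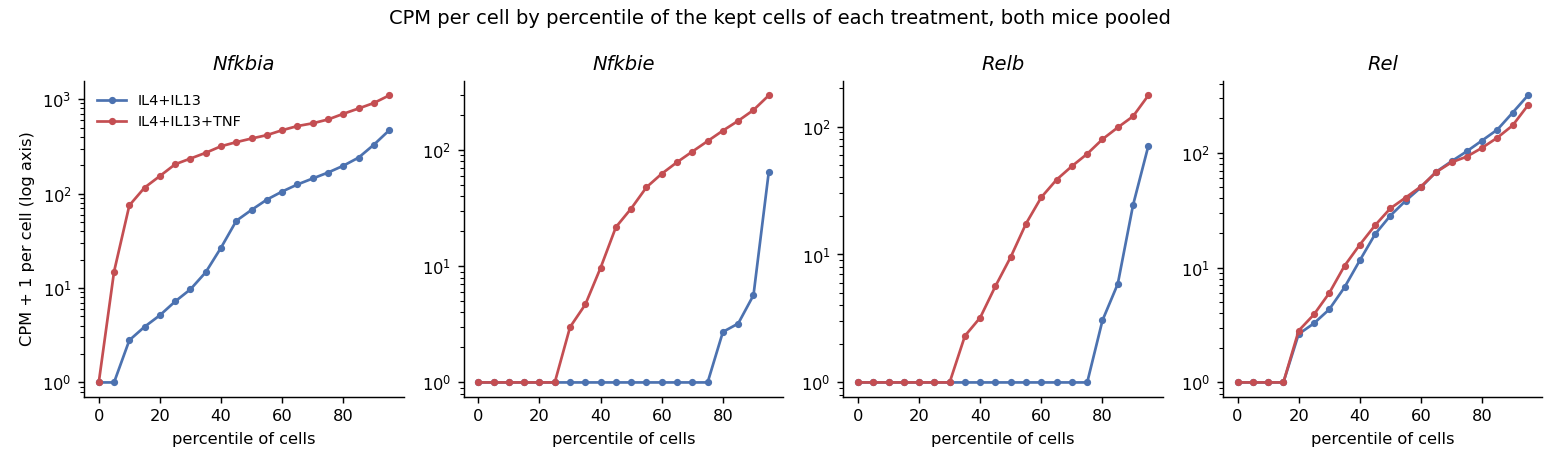
CPM per cell plus 1 (log axis) of *Nfkbia*, *Nfkbie*, *Relb* and *Rel* in steps of 5 percentiles of the kept cells up to percentile 95, for IL4+IL13 (blue) and IL4+IL13+TNF (red), both mice pooled. The red curves of the first 3 genes lie above the blue ones wherever either leaves 0 CPM, and the curves of *Rel* run together.

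*Clec4e* and *Clec10a* mark opposite sides of the TNF response in these cells and served as the reference for the relation of the members to it across single cells. *Clec4e*, which encodes the C-type lectin Mincle, was at 19.2 and 21.7 CPM without and at 665 and 723 CPM with TNF (log2 fold change 5.09 ± 0.19, SE, n = 2; edgeR adjusted p = 0.0203 with treatment only). *Clec10a*, which encodes the C-type lectin CD301 associated with M2 macrophages, was at 261 and 336 CPM without and at 84.6 and 123 CPM with TNF (log2 fold change -1.52 ± 0.26; edgeR adjusted p = 0.232 with treatment only and 0.00771 with the mouse block). All 10 members were correlated with both genes within each of the 8 sets of cells of 1 plate and treatment, with 160 to 183 cells per set that share a library batch and differ in depth, and Spearman's rho is given as a description only.

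Within a treatment the relations were weak. The median over the 10 members of their rho, each taken as the median of 8 sets, was 0.03 with *Clec4e* and 0.01 with *Clec10a*. The largest value was that of *Nfkbia* with *Clec4e* in cells with TNF, with a median rho of 0.18 over 4 plates and a range from 0.05 to 0.31, above 98.7% of 10651 genes. It was positive on 4 of 4 plates, and the 2 plates of mouse 1 were near 0.31 while those of mouse 2 were near 0.05. *Nfkbia* had a median rho of 0.10 with the total fragments of the cell in this treatment, and its rho with *Clec4e* was 0.17 given the total and the number of detected genes and 0.15 at equal depth. Without TNF its median rho with *Clec4e* was 0.08, with 3 of 4 plates positive.

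*Nfkbie* and *Nfkbib* had median rho values with *Clec4e* of 0.09 and 0.09 with TNF, positive on 4 of 4 plates each, and of 0.02 and 0.03 without TNF. *Nfkb1* was on the other side with TNF, with a median of -0.08 and no positive plate among the kept cells (-0.02 and 1 of 4 plates positive without the cell filter), although it was positive on 4 of 4 plates without TNF (median 0.04). With *Clec10a*, *Nfkb1* (median -0.10) and *Relb* (-0.07) were negative on 4 of 4 plates with TNF, and *Nfkbiz* (0.09) and *Nfkbia* (0.07) were positive on 4 of 4. *Nfkbia* in cells with TNF was thus positive with both genes, *Clec4e* and *Clec10a*, although the treatment moved these in opposite directions. The genes tested had medians of 0.02 with *Clec4e* and 0.02 with *Clec10a* in cells with TNF, with 90% of them between -0.10 and 0.13 for *Clec4e* and between -0.08 and 0.13 for *Clec10a*, and in sparse counts of this kind a rho of such size is no finding.

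**Figure D5:**
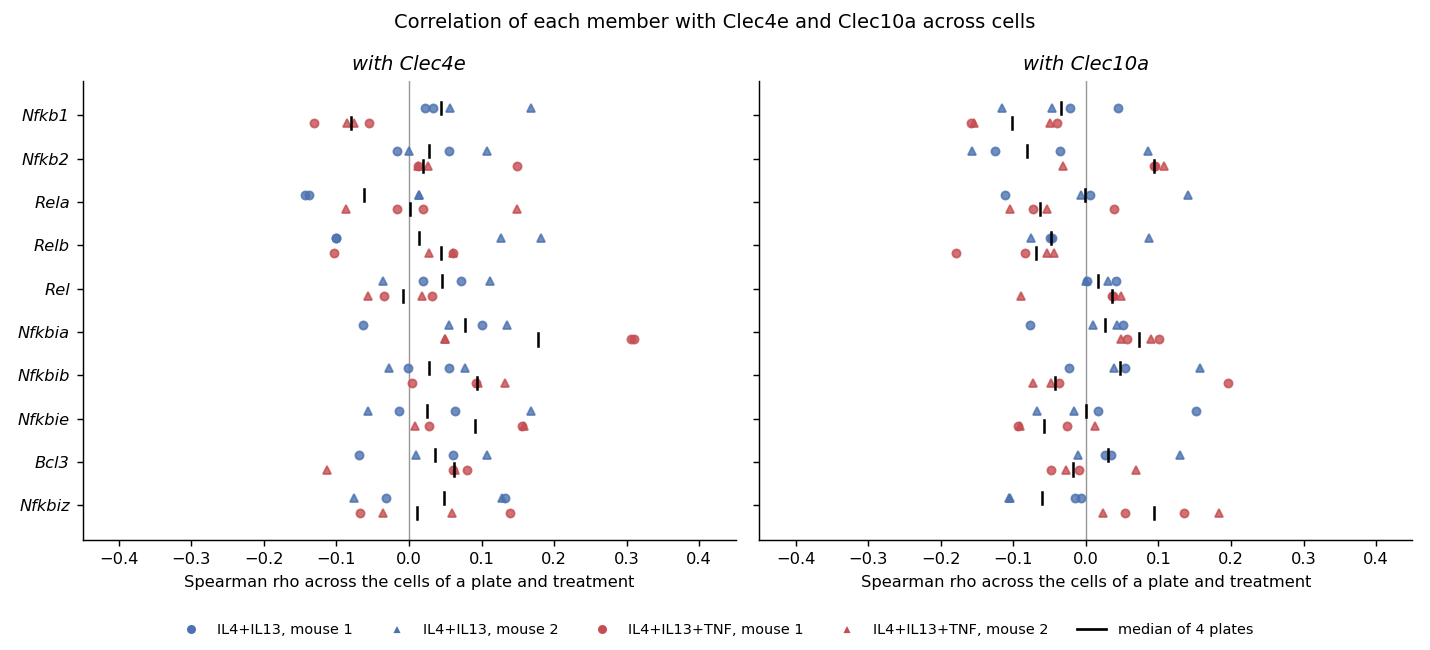
Spearman's rho of each member with *Clec4e* (left) and *Clec10a* (right) across the cells of each plate and treatment, coloured by treatment (blue, IL4+IL13; red, IL4+IL13+TNF) and shaped by mouse, with black ticks for the median of 4 plates. The points of most genes lie on both sides of 0, and the 2 plates of mouse 1 with TNF stand out for *Nfkbia* with *Clec4e*, near 0.31.

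The members varied together only weakly from cell to cell. Over their 45 pairs the median rho was 0.03, the pairs ranged from -0.07 to 0.12, and none was positive in all 8 sets. The 3 genes most like each member across cells, searched among 10649 genes found in at least 25% of cells, had median rho values of 0.12 to 0.22, and 4 of the 30 were positive in all 8 sets, namely *Btg1* and *Sfpq* with *Nfkb1*, *Plaur* with *Nfkbie* and *Jak2* with *Bcl3*. The highest values were those of *Slc2a6* with *Nfkbie* (0.22) and of *Cxcl2* with *Nfkbia* (0.21). The latter ranged from -0.07 to 0.46 over the sets. These genes were picked from 10649 by the same rho values, so neither their size nor their sign is a test of a relation.

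The rest of the pathway was followed through lists of signalling genes, feedback regulators and known inducible targets. These lists were chosen with earlier results of these data known. Of 22 genes of TNF receptor and I-kB kinase signalling, edgeR called none with treatment only and 4 with the mouse block, all higher (1.94% of all genes were called higher with the block), and the median log2 fold change of the 22 was 0.03, against 0.00 over all genes. The 4 were *Traf1* (14.6 and 13.9 CPM without, 61.0 and 81.7 with TNF, log2 fold change 2.32, edgeR adjusted p = 0.00798 with the block), *Birc3* (28.4 and 53.0 to 123 and 151 CPM, 1.75, 0.0139), *Traf3* (13.5 and 14.01 to 32.5 and 32.5 CPM, 1.24, 0.0211) and *Ikbke* (32.6 and 62.9 to 104 and 119 CPM, 1.23, 0.0360). They encode adaptor proteins (*Traf1*, *Traf3*), a ubiquitin ligase of the TNF receptor complex (*Birc3*) and an I-kB kinase-related kinase (*Ikbke*). The core kinase genes *Chuk*, *Ikbkb* and *Ikbkg* were not called, with log2 fold changes of -0.23, -0.15 and 0.22, and *Map3k14*, the kinase upstream of *Nfkb2* processing, had 0.35.

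Of 11 feedback regulators, edgeR called none with treatment only and 3 with the mouse block, all higher (against 1.94% of all genes), and the median log2 fold change of the 11 was 0.38, against 0.00 over all genes. *Tnfaip3*, encoding the ubiquitin-editing enzyme A20, went from 9.0 and 16.1 to 63.4 and 66.1 CPM (2.37, edgeR adjusted p = 0.0124 with the block). *Tnip3*, encoding an A20-binding protein, went from 148 and 171 to 430 and 425 CPM (1.42, 0.00815), and *Tank*, encoding a TRAF-binding adaptor, from 79.9 and 98.2 to 191 and 217 CPM (1.19, 0.0115). The genes for A20 and I-kB alpha and epsilon, all of which are known to restrain the pathway, were therefore among those that rose, as were *Relb* and *Nfkb2* on the side of the subunits.

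Of 32 known inducible targets, 28 passed the filter on low values, all but *Il1a*, *Il12b*, *Nos2* and *Lcn2*. A gene could pass this filter through its TNF-treated cells alone, and the list was chosen with earlier results known. The counts and the median therefore describe the list and are no test of it. With treatment only, edgeR called *Clec4e* alone, and with the mouse block it called 12 higher and 2 lower (3.82% of all genes in either direction, 1.94% higher), and the median log2 fold change of the 28 was 1.61, against 0.00 over all genes. The largest rises were those of *Gpr84* (7.78), *Saa3* (6.84), *Il6* (5.15) and *Clec4e* (5.09). *Gpr84*, a fatty acid receptor gene, was at 0.022 and 0.077 CPM without TNF and at 13.5 and 8.29 CPM with it, and *Il6* was at 0.440 and 0.208 CPM without and at 7.999 and 15.05 CPM with TNF, so both stayed low. *Saa3*, an acute phase gene, went from 0.633 and 1.63 to 130 and 129 CPM. The chemokine genes *Ccl3* (227 and 122 to 107 and 65.8 CPM, log2 fold change -1.01, edgeR adjusted p = 0.0187 with the block) and *Ccl4* (157 and 62.8 to 61.1 and 35.3 CPM, -1.19, 0.0318) were lower.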

How the data were processed

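Single BMDMs of 2 mice were profiled by Smart-seq2 in 4 plates. The deposited table gives raw fragment counts for each gene in each well, made by the authors from uniquely mapped fragments (GSNAP, mm10, Ensembl annotation) assigned with featureCounts 1.6.3 without strand, per the file headers, the submitters' processing notes and the paper's methods. The protocol has no molecular identifiers, so PCR copies were counted. 11 columns were not used, 8 that match no sample label and 3 of the 4 samples with no mouse in the labels. Spike-in rows (92) were left out of totals.

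The members and the lists were chosen with earlier results of these data known. Wells were left out per plate beyond 3 median absolute deviations (low total or detected genes, high mitochondrial or spike-in share), which left 1386. The sum of counts over the kept cells of each animal and treatment was tested in edgeR 4.0.16 (quasi-likelihood, TMM, R 4.3.3) for the 17034 genes detected in 5% or more of these cells under one treatment and passing filterByExpr, with Benjamini-Hochberg adjustment over all of them at 0.05. CPM values of the members and listed genes in sums use TMM. Those of the cell type markers and of single cells were scaled to the total fragments only. The log2 ratios within a mouse or plate had 0.5 CPM added. Alternatives were the mouse as a block, DESeq2 1.42.0, limma 3.58.1 on log2(mean CPM + 1), library size, other gene and cell filters, single sums left out and plate pairs. The mouse numbers pair the samples, since both treatments came from the same animals, and the same-mouse deviations correlated with r = 0.568 across genes. Shares used cells thinned to 339000 fragments. The genes named were the members, *Clec4e*, *Clec10a* and the called genes of each list (the 4 largest rises and 4 largest falls where over 8 were called). The 3 genes with the highest median rho per member were named too. The untested, overlapping and core kinase genes, the feedback regulators that were lower and the markers named were chosen after their values were seen. The scripts were tested on simulated data first.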

Additional observations from a re-analysis of the deposited data

Results flagged for a closer look

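*Nfkbie* without TNF stood apart on 1 plate. It was at 12.6 CPM on plate 2 of mouse 1 and between 7.07 and 7.81 CPM on the other 3 plates, a gap of 0.867 of the range which is beyond Dixon's critical value for 4 values. It was the only one of 20 sets of 4 plates (10 members, 2 treatments) to pass, and chance gives about 1 in 20.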

How the results depend on the processing

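The number of members called was 0 with edgeR and treatment only, 4 with the mouse as a replicate block, 5 with DESeq2 and, as an alternative chosen after seeing the data, 6 with the block and without cells of 5 or more *Ccr7* fragments. It was 0 under library size, no gene filter, limma, both other cell filters and both plate pairs, and 0 to 1 when single sums were left out, the 1 being *Nfkbie* without IL4+IL13+TNF of mouse 1 (adjusted p = 0.0433). Over all genes, 1 was called with treatment only, 651 with the block, 598 with DESeq2, 897 with the block and without the *Ccr7* cells, 2 with either plate pair, and 4 to 30 with single sums left out, where a lone sum is assumed to vary like the others. Library size shifted the median log2 fold change of all genes to -0.09.

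The direction was kept in 135 of 135 alternatives for the 9 members other than *Rel*. *Rel* reversed to 0.16 without IL4+IL13+TNF of mouse 1, to 0.38 without IL4+IL13 of mouse 2 and to 0.074 on plates 3 and 5 (single sums left out gave -0.41 to 0.38), and the difference of *Nfkbiz* between the mice reversed to 0.0063 with library size, none of them called. The median gain in the share of cells was 16.6 percentage points at 1 fragment and 22.8 at 5. The median over the members of the relations to *Clec4e* and *Clec10a* stayed within its spread under thinning, partial correlation and no cell filter, as did the ratio of inhibitors to subunits under mean CPM and no cell filter. Without the cell filter, 3 single relations moved, *Nfkb1* with *Clec4e* (-0.02) and *Nfkbia* with *Clec10a* (0.11) with TNF and *Rel* with *Clec10a* (0.07) without. The cause of these changes was not tested.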

Other observations

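The 19 cells of mouse 2 with TNF that held at least 5 *Ccr7* fragments, a marker of mature dendritic cells, differed in their family members from the 330 other cells of that sum, given here as values with no test because the cells come from 1 animal. Mean CPM was 245 against 41.1 for *Relb*, 291 against 67.8 for *Rel*, 133 against 59.5 for *Nfkb2* and 311 against 152 for *Nfkb1*. *Rel*, not called between the treatments, was thus 4.29-fold higher in these cells. *Nfkbib* was at 103 against 56.9, *Bcl3* at 26.3 against 20.2 and *Nfkbiz* at 12.3 against 16.5. *Nfkbia* (503 against 386) and *Rela* (76.4 against 66.1) were closer in the mean, and *Nfkbie*, the member with the largest difference with TNF, was at 68.7 against 71.4 CPM. *Clec4e* was at 229 against 716 CPM and *Clec10a* at 45.5 against 113 CPM in the same cells. The median cell held 125 against 6.75 CPM of *Relb* and 213 against 26.7 CPM of *Rel*, but 17.1 against 46.9 CPM of *Rela* and 2.18 against 13.3 CPM of *Nfkbie*. For *Nfkbia* it held 317 against 318 CPM and for *Nfkbib* 106 against 33.0 CPM.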
